A study of Homo sapiens with 6 samples.

Results

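The genes described here are 10 genes of retinoid metabolism and of the short-chain dehydrogenase family: DHRS2, DHRS3, DHRS9, RDH10, RDH11, ALDH1A3, CRABP2, RARA, RARG and RXRA. They were listed by name, and all 10 were found among the 12829 genes of the expression table. The list was chosen by function with the FPKM levels in knockdown and control already known, DHRS2 among them for its large difference, so their levels and differences are given as a description. Where a member is said to pass or miss the threshold of the fit over all genes, this only places it among them and is no evidence independent of that choice. The data are RNA-seq libraries of HaCaT cells, an immortal aneuploid keratinocyte line from human skin. The knockdown group held 3 libraries of cells with a short hairpin RNA against IQGAP2 (genotype label IQGAP2 knockdown), and the control group held 3 libraries labelled normal control (genotype label WT). Cells of both groups were grown in DMEM with fetal bovine serum. The labels do not say whether the control cells carried a hairpin, how many hairpins were used, or whether the libraries of a group, titled as biological replicates, came from separate cultures. P-values here therefore cover the variation from library to library alone, part of which may be technical.

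Vitamin A works in the epidermis through its acid. Retinol enters cells, is oxidised to retinaldehyde by short-chain dehydrogenases such as RDH10, and is then oxidised irreversibly to retinoic acid by retinaldehyde dehydrogenases such as ALDH1A3. Other short-chain dehydrogenases, DHRS3 and RDH11 among them, reduce retinaldehyde back to retinol, so the level of retinoic acid is set by enzymes that work in opposite directions. CRABP2 carries retinoic acid to the nucleus, where receptors of the RAR family act on DNA as partners of RXR receptors. In keratinocytes retinoic acid is known to restrain terminal differentiation, and RARG with RXRA are the main receptors of the epidermis. DHRS2 belongs to the same enzyme family and is known as a reductase of dicarbonyl compounds.

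Promoter windows are shown for 3 genes: DHRS2 and CRABP2, which were higher in the knockdown, and DHRS3, which was lower. Each runs from 250 bases before to 50 bases after a start site, 5′ to 3′ on the strand of the gene, in RefSeq on GRCh38.p14. Capitals mark TATAAA in the DHRS2 window (chr14:23629865-23630164, plus strand), CCGCCC, which is GGGCGG read on the other strand, in the most upstream DHRS3 window (chr1:12618161-12618460, minus strand), and GGTTCA in the CRABP2 window (chr1:156705735-156706034, minus strand).
DHRS2: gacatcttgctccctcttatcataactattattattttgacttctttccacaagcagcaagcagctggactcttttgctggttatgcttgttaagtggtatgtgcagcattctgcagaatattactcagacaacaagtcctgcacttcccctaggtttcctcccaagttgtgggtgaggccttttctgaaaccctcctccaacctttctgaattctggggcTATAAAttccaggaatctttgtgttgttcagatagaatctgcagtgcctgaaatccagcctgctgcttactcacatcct
DHRS3: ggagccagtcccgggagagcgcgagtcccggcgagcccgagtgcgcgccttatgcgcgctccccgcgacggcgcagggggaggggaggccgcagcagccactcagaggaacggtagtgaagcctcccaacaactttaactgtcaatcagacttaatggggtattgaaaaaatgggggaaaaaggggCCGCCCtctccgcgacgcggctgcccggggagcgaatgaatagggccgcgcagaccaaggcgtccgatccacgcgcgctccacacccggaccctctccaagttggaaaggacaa
CRABP2: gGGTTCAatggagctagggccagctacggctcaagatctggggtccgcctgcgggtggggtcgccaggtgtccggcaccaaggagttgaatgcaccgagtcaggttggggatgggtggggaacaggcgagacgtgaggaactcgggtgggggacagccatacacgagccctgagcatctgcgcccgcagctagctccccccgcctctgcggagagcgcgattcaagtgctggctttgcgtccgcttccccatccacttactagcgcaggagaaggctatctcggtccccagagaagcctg
TATAAA began 29 bases before the DHRS2 start, and 11.5% of all 35116 windows held it on either strand. It was in 4 of 17 member windows, those of DHRS2 and DHRS9. The DHRS2 window had 0 CG pairs and 44% G and C, and 3.96% of all windows had as few CG pairs. A DHRS9 window (chr2:169080857-169081156) also had 0 CG pairs. The DHRS3 window had 31 CG pairs, more than 79.3% of all windows, and the CRABP2 window had 20. GGGCGG, the site of Sp1-type factors, was in 45% of all windows and in windows of 5 members (DHRS3, ALDH1A3, RARA, RARG and RXRA). It was not in those of DHRS2, DHRS9, RDH11 or CRABP2.

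Windows of 9 members were used, 17 windows in all. For the members, windows on chromosome 8, where RDH10 lies, were left out. The retinoic acid receptor core hexamers were searched on both strands. Among all windows, AGGTCA was present in 13.8%, AGTTCA was present in 10.4%, GGGTCA was present in 14.1% and GGTTCA was present in 8.62%. At least 1 of them was in 38.6% of all windows and in 6 of the 17 member windows, those of CRABP2, DHRS3, DHRS9, RARA and RXRA. Direct repeats of these hexamers with spacers of 1, 2 or 5 bases, which contain the hexamers already counted, were in 0.131%, 0.0399% and 0.0883% of all windows and in 0 of the 17. These letters are a description of the windows only and say nothing of any factor.

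Expression was given as FPKM, fragments per kilobase of gene scaled by library depth, so that levels may be compared between genes. The reads behind the values were recovered and came to between 12901037 and 15360758 per library in the knockdown and between 13957447 and 15122470 in the control. IQGAP2 itself had 2, 4 and 2 reads in the knockdown libraries and 24, 22 and 21 reads in the control libraries, in replicate order. These equal a mean of 0.0235 FPKM in the knockdown, against 0.196 FPKM in the control. IQGAP2 was thus low in both groups, below the mean of 0.5 FPKM required for the test, and was not tested. Knockdown replicate 2 stood apart, with read counts that differed from the other knockdown libraries by 10.5 and 11.3 times the variance of counting (chi-square over its degrees of freedom), where all other pairs within a group gave 2.1 to 2.49. All 14 keratinocyte markers were in the table, with summed levels of 7384 to 8098 FPKM in the knockdown and 7209 to 7299 FPKM in control libraries. Of these 14 markers, 9 rose and 0 fell (limma, adjusted p under 0.05), with a median log2 change of 0.39. Of all genes tested, 29.5% rose and 27.8% fell. Of markers of other cell types, 2 of 7 for melanocytes, 3 of 8 for fibroblasts, 2 of 8 for immune cells and 2 of 5 for endothelium were listed. Their summed levels were 0.855 to 1.04 FPKM in knockdown against 1.20 to 1.28 FPKM in control for melanocytes, and 1.56 to 1.91 FPKM in knockdown against 3.46 to 3.79 FPKM in control for fibroblasts. For immune cells they were 0.912 to 1.3 FPKM in knockdown against 3.3 to 3.88 FPKM in control, and for endothelium 0.424 to 0.484 FPKM in knockdown against 0.269 to 0.401 FPKM in control. Defining markers such as PTPRC, PDGFRA, PECAM1 and SOX10 are not analysed here. Few of these reached the level needed for the test. Of 2 fibroblast markers tested 1 fell, the 1 immune marker tested fell (log2 change -1.08), and the 1 melanocyte marker tested did not pass. How far these shifts bear on the retinoid genes was not tested, and in bulk RNA fewer cells of a type and less RNA per cell cannot be told apart.

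Across the 10 genes, DHRS2 and CRABP2 were higher in the knockdown, DHRS3, RDH10 and ALDH1A3 were lower, and 5 did not pass the threshold (limma on log2(FPKM + 1), Benjamini-Hochberg adjusted p under 0.05 over all genes tested). All 10 reached the mean of 0.5 FPKM required for the test, as did 11214 genes in all. Of all genes tested, 57.4% were called, 29.5% as higher and 27.8% as lower, and nothing is read from the count of members because their values were known. The median log2 change, knockdown minus control, was -0.13 over the 10 genes and 0.01 over all genes tested. Values below are in replicate order, means carry the SD of 3 libraries, and log2 changes are those of FPKM + 1, so the change of low genes is understated, with a 95% interval from limma.

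**Figure D1:**
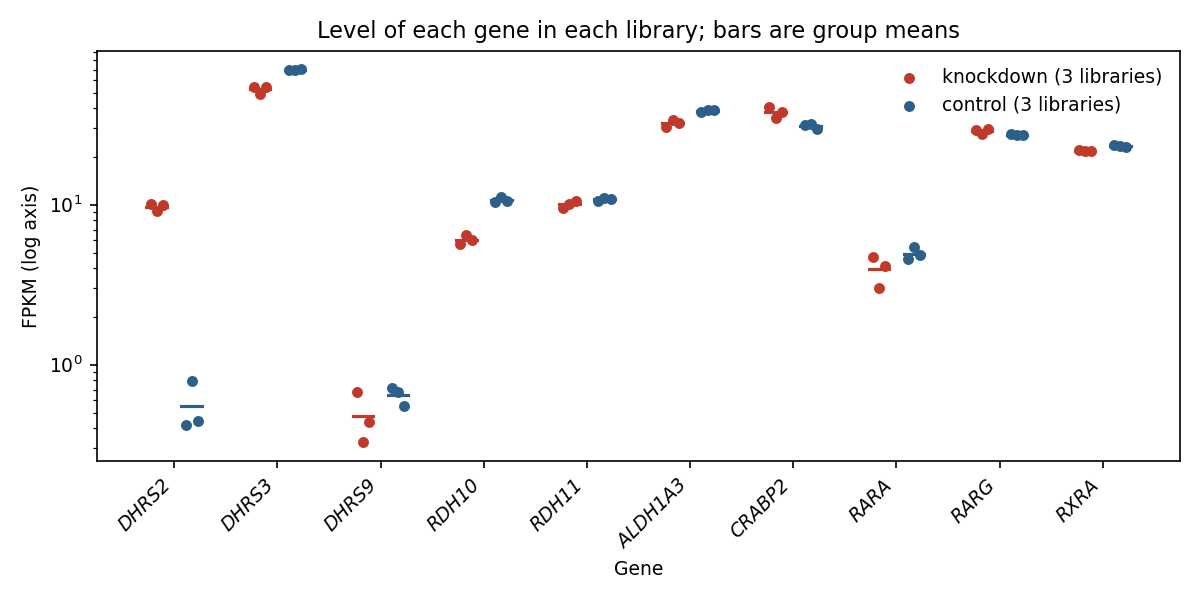
FPKM (log axis) of the 10 genes in each library, knockdown in red to the left of control in blue, with bars at the group means. DHRS2 lies between 9.11 and 10.0 FPKM in the knockdown and between 0.418 and 0.790 FPKM in the control; among the other genes the group means of RDH10 lie farthest apart, 43.5% lower in the knockdown.

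DHRS2 (ENSG00000100867, chromosome 14, 23630115 to 23645639, plus strand, GRCh38) had 10.0, 9.11 and 9.92 FPKM in knockdown libraries and 0.418, 0.790 and 0.444 FPKM in control libraries. All knockdown values lay above all control values, and control replicate 2 was the highest of the controls. The reads behind these were 982, 1061 and 1040 in the knockdown against 48, 84 and 47 in the control. The mean was 9.69 ± 0.506 FPKM in the knockdown, 17.6 times that of 0.551 ± 0.207 FPKM in the control, with a log2 change of 2.79 (SE 0.0967, interval 2.58 to 3.01). Of all genes tested, 0.0178% had a larger absolute change. The spread among control libraries was 37.7% of the mean where counting alone gives 12.9%, and among knockdown libraries it was 5.22%, where counting alone gives 3.12%. With voom on the reads the log2 change was 4.19, and over all other settings it was 2.71 or more.

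In the control DHRS2 had the lowest mean level of the 10 genes, overlapping that of DHRS9 above it. In the knockdown it was seventh, below RDH11 at 10.1 FPKM, with which its values overlapped, and above RDH10 at 6.05 FPKM, with which they did not. As a share of the summed level of the 5 short-chain dehydrogenases, DHRS2 made up 12.5%, 12.1% and 12.2% in knockdown libraries and 0.455%, 0.846% and 0.480% in control libraries. The sum itself was lower in the knockdown, at 79.0 ± 3.33 FPKM, against 92.5 ± 0.714 FPKM in the control, since DHRS3 and RDH10 were lower by more than DHRS2 was higher.

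DHRS3, the retinaldehyde reductase that returns retinaldehyde to retinol (ENSG00000162496, chromosome 1, 12567910 to 12617731, minus strand), was the most abundant of the 10 genes in both groups. Its level was 54.4, 49.1 and 54.5 FPKM in the knockdown and 69.8, 69.6 and 70.1 FPKM in control libraries. The groups did not overlap, knockdown replicate 2 was the lowest, and the control libraries lay within 1 FPKM of each other. The mean was 24.6% lower in the knockdown, with a log2 change of -0.40 (SE 0.0503, interval -0.51 to -0.29). RDH10, the dehydrogenase that oxidises retinol to retinaldehyde (ENSG00000121039, chromosome 8), had 5.66, 6.47 and 6.02 FPKM in the knockdown and 10.4, 11.2 and 10.5 FPKM in control libraries. No knockdown value reached any control value, and the mean was 43.5% lower, the largest relative decrease among the 10 genes. The log2 change was -0.73 (SE 0.0641, interval -0.88 to -0.59). RDH10 overlaps the ribosomal protein gene RPL7 and an antisense gene on the other strand, and since the use of strand in counting is not given in the sources used here, reads of these cannot be told apart.

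DHRS3 and RDH10 proteins are known to work in opposite directions and to activate each other, so their transcripts were set side by side within each library. The ratio of DHRS3 to RDH10 levels was 9.61, 7.59 and 9.05 in knockdown libraries and 6.70, 6.20 and 6.67 in control libraries. The lowest knockdown ratio, in replicate 2, was above the highest control ratio. Both transcripts were lower in the knockdown, RDH10 by the larger fraction.

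RDH11, a retinaldehyde reductase of the endoplasmic reticulum (ENSG00000072042, chromosome 14, 67676801 to 67695814, minus strand), had 9.47, 10.2 and 10.6 FPKM in the knockdown and 10.6, 11.0 and 10.8 FPKM in control libraries. The groups overlapped, and the log2 change was -0.09 (SE 0.0577, interval -0.22 to 0.04), turning to 0.06 with libraries rescaled to a common sum. DHRS9, which oxidises retinol and steroids (ENSG00000073737, chromosome 2, 169064789 to 169096167, plus strand), was near the lower limit of the test with 0.677, 0.327 and 0.440 FPKM in the knockdown and 0.717, 0.679 and 0.550 FPKM in control libraries. It rested on 19 to 33 reads in knockdown and 29 to 41 reads in control libraries, and the groups overlapped, with a log2 change of -0.16 (SE 0.0987, interval -0.38 to 0.06). The spread among knockdown libraries was 37.1% of the mean where counting alone gives 20.0%. Without knockdown replicate 1, DHRS9 passed as lower with a log2 change of -0.25.

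ALDH1A3, the retinaldehyde dehydrogenase that makes retinoic acid (ENSG00000184254, chromosome 15, 100877714 to 100916626, plus strand), had 30.5, 33.9 and 32.6 FPKM in the knockdown and 37.7, 39.0 and 39.0 FPKM in control libraries. The groups did not overlap. The mean was 16.1% lower in the knockdown, with a log2 change of -0.25 (SE 0.0502, interval -0.36 to -0.14). With libraries rescaled to a common sum the change was -0.09 and the call was lost. ALDH1A3 was second in level in the control, and CRABP2 took that place in the knockdown.

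CRABP2, the protein that carries retinoic acid to its receptors (ENSG00000143320, chromosome 1, 156699606 to 156705816, minus strand), had 40.7, 34.8 and 38.1 FPKM in the knockdown and 31.4, 31.9 and 29.6 FPKM in control libraries. All knockdown values were above all control values, with knockdown replicate 2 closest to the controls. The mean was 22.2% higher, with a log2 change of 0.28 (SE 0.0607, interval 0.14 to 0.41). FABP5, a binding protein that carries retinoic acid to PPARD instead, was at 51.2 ± 3.37 FPKM in the knockdown and 52.0 ± 1.60 FPKM in the control and did not pass (limma log2 change -0.02, adjusted p = 0.742), and its sign changed under other settings. The ratio of CRABP2 to FABP5 levels was 0.791, 0.730 and 0.701 in knockdown and 0.623, 0.595 and 0.572 in control libraries, with no overlap.

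None of the 3 receptors passed the threshold. RARG (ENSG00000172819, chromosome 12, 53210567 to 53232980, minus strand) had 29.2, 27.7 and 29.6 FPKM in the knockdown and 27.7, 27.2 and 27.1 FPKM in control libraries, and the groups overlapped at knockdown replicate 2. Its log2 change was 0.07 (SE 0.046, interval -0.03 to 0.18), and it passed as higher without knockdown replicate 2 (0.10), under quantile normalization (0.13) and with a common sum (0.23). RXRA, the common partner (ENSG00000186350, chromosome 9, 134317098 to 134440585, plus strand), had 21.9, 21.5 and 21.8 FPKM in the knockdown and 23.7, 23.4 and 23.1 FPKM in control libraries. These groups did not overlap, but the mean was only 7.13% lower, and the log2 change of -0.10 (SE 0.0438, interval -0.20 to -0.01) did not pass after adjustment. It passed as lower with the length trend removed (-0.14), and its sign turned with a common sum (0.06), so no direction is given for RXRA.

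RARA (ENSG00000131759, chromosome 17, 40309192 to 40357643, plus strand) was the least abundant receptor of the 3 and the most variable. It had 4.72, 3.02 and 4.16 FPKM in the knockdown and 4.56, 5.45 and 4.83 FPKM in control libraries, and the groups overlapped. The spread among knockdown libraries was 21.8% of the mean where counting alone gives 6.17%, with knockdown replicate 2 the lowest. The log2 change was -0.27 (SE 0.12, interval -0.54 to -0.01) and did not pass, though it passed as lower without knockdown replicate 1 (-0.38) and with voom on the reads (-0.35), and was -0.13 without knockdown replicate 2. RARG made up 86.1%, 90.2% and 87.7% of the summed RARA and RARG level in knockdown libraries and 85.9%, 83.3% and 84.9% in control libraries.

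**Figure D2:**
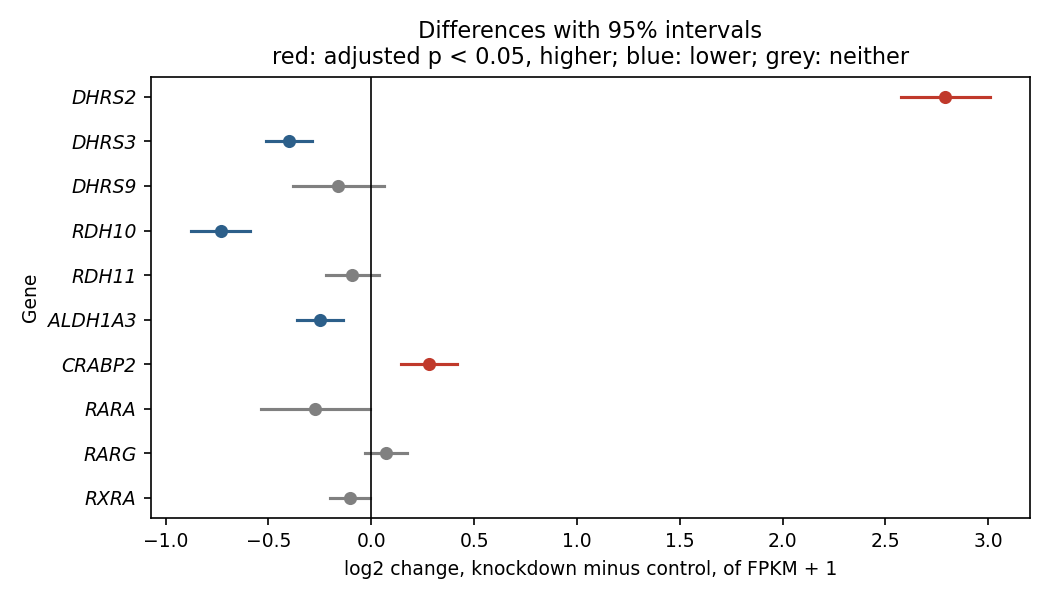
Log2 change of the 10 genes, knockdown minus control, of FPKM + 1, with 95% intervals from limma; red passed as higher, blue as lower, grey passed neither way. DHRS2 at 2.79 lies far from the other genes, which run from -0.73 for RDH10 to 0.28 for CRABP2.

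In both groups the same gene headed the order of levels, DHRS3, followed lower down by RARG, RXRA and RDH11 one after the other. Neighbours in this order overlapped only for RDH11 with DHRS2 in the knockdown, and for RDH11 with RDH10 and DHRS9 with DHRS2 in the control. Of the 10 genes, 2 had all knockdown values above all control values and 4 had all below, where 33.7% and 31.4% of all genes tested did so (65.1% together). Antisense genes overlap ALDH1A3, CRABP2 and RARA as well as RDH10. On the same strand, a protein-coding gene overlaps RDH11, a processed transcript overlaps ALDH1A3, and small RNA genes overlap DHRS3 and RXRA.

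**Figure D3:**
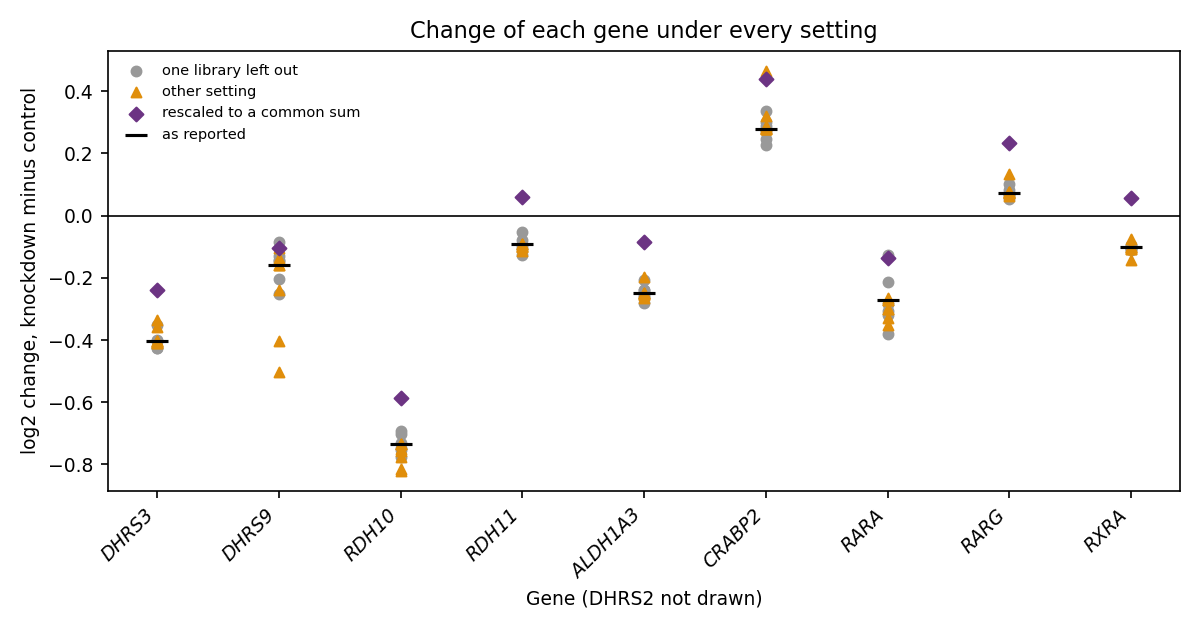
Log2 change of 9 of the genes (DHRS2 not drawn) under each processing setting, with the reported value as a black bar. Rescaling to a common sum (purple) moves each gene drawn upwards, across 0 for RDH11 and RXRA, while RDH10 and DHRS3 stay below 0 and CRABP2 above it at every setting.

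DHRS2 lies in a stretch of chromosome 14 that also holds its relatives DHRS4 and DHRS4L2. The genes within 500 kb of its start, a list set by position after the data had been examined, were compared with it. Of 16 in the table, 13 were tested, with a median log2 change of 0.03. Of these 13, 4 were higher and 2 lower, where 29.5% and 27.8% of all genes tested were. Nothing is read from this count. The nearest tested genes on the upstream side were AP1G2, at 6.70 ± 0.326 FPKM in the knockdown and 5.82 ± 0.231 FPKM in control libraries (limma log2 change 0.17, adjusted p = 0.0371), and THTPA, at 0.926 ± 0.191 FPKM in the knockdown against 1.05 ± 0.257 FPKM in the control (limma adjusted p = 0.513). DHRS4 was at 4.15 ± 0.575 FPKM in the knockdown and 4.51 ± 0.559 FPKM in the control and did not pass (limma log2 change -0.10, adjusted p = 0.419). DHRS4L2 fell to 1.64 ± 0.148 FPKM in knockdown libraries, against 2.57 ± 0.161 FPKM in control libraries (limma log2 change -0.43, adjusted p = 8.46e-04). DHRS4 and DHRS4L2 are close copies of each other, and the split of reads between the pair is uncertain. The largest change among the neighbours, 0.52 for PCK2, the mitochondrial phosphoenolpyruvate carboxykinase, was well below that of DHRS2.

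**Figure D4:**
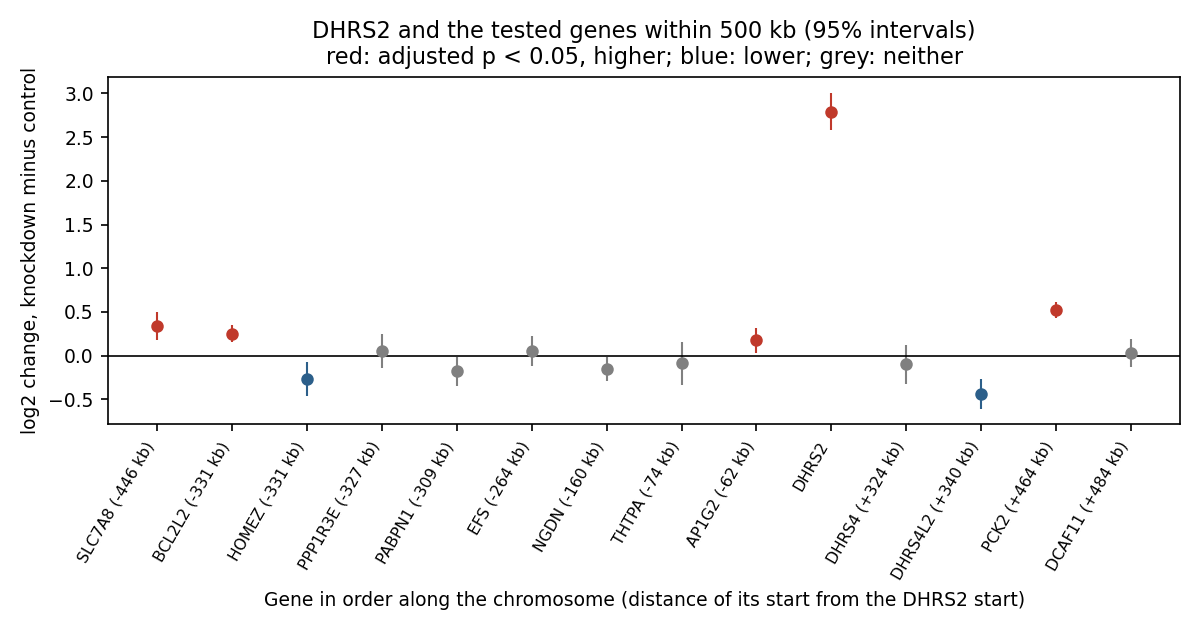
Log2 change with 95% interval of DHRS2 and of the 13 tested genes within 500 kb, in order along the chromosome; red passed as higher, blue as lower, grey passed neither way. DHRS2 stands at 2.79 and its neighbours between -0.43 and 0.52.

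The 5 genes whose log2(FPKM + 1) over the 6 libraries followed DHRS2 most closely by Pearson correlation were RND3, CAV1, COMMD10, PCK2 and CNBP, with values of 0.9991 to 0.9986. The libraries fall into separate groups, so this measures little beyond the difference between them and is given as a description. Their log2 changes were 0.40 to 0.81, smaller than that of DHRS2. PCK2 is also among the neighbours above.

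Other genes of the pathway were taken from lists set by function, with earlier results of these data known. Their counts and adjusted p-values place them among all genes tested and are no evidence independent of that choice. Of 93 genes listed, 64 were in the table and 59 were tested. Of these 59, 26 fell (44.1%) and 16 rose (27.1%), where 27.8% and 29.5% of all genes tested did. The last 2 shares are also the ones to set beside the list counts below. With libraries rescaled to a common sum the 59 turned to 20 lower and 24 higher, where 16.4% and 43.4% of all genes tested were. No direction is therefore given for the 59 genes as a whole. Genes that take up or store retinol fell or did not pass. Of 5 tested in this list 3 fell and 0 rose, with a median log2 change of -0.37. PNPLA4, named here after its values were seen, did not pass (limma log2 change 0.16, adjusted p = 0.0558). Its knockdown values of 8.44 to 8.98 FPKM all lay above its control values of 7.02 to 8.20 FPKM. In this list 1 rose and 3 fell with a common sum, with the length trend removed and without control replicate 2. With the replicate block, without control replicate 3 and without knockdown replicate 1, 0 rose and 4 fell. STRA6, the retinol transporter, had 8.54, 7.56 and 8.75 FPKM in the knockdown and 15.3, 16.5 and 15.1 FPKM in control libraries, with every knockdown library below every control library (limma log2 change -0.84, SE 0.065, adjusted p = 5.48e-06). DGAT1, which can esterify retinol, fell to 6.46 ± 0.695 FPKM in knockdown libraries, against 9.97 ± 0.526 FPKM in control libraries. SCARB1, a receptor for lipoproteins that also takes up carotenoids, was lower too, at 3.40 ± 0.339 FPKM in knockdown libraries, against 4.68 ± 0.165 FPKM in control libraries. LRAT, the main retinol esterifying enzyme, is not analysed here.

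Of 11 other oxidoreductases that act on retinol or retinaldehyde, 6 fell and 0 rose, with a median of -0.27. With a common sum 5 fell and 1 rose, with a median of -0.11, and without control replicate 1, 6 fell and 1 rose. AKR1B10, a retinaldehyde reductase of the aldo-keto family, had 0.56, 0.36 and 0.73 FPKM in the knockdown and 2.85, 3.03 and 4.05 FPKM in control libraries, without overlap (limma log2 change -1.47, SE 0.12, adjusted p = 7.82e-06). AKR1C3 fell to 4.38 ± 0.111 FPKM in knockdown libraries, against 7.92 ± 0.454 FPKM in control libraries. RDH16 and HSD17B6, which oxidise retinol and steroids, were low and fell further. RDH16 had 0.384 ± 0.166 FPKM in knockdown libraries, against 0.998 ± 0.256 FPKM in control libraries. HSD17B6 had 0.308 ± 0.144 FPKM in knockdown libraries, against 0.944 ± 0.261 FPKM in control libraries. Genes of the aldo-keto family have similar sequences, so their reads may have been shared.

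Of the 3 further genes tested that make or break down retinoic acid, all fell. ALDH1A1, another retinaldehyde dehydrogenase, had 0.19, 0.20 and 0.33 FPKM in the knockdown and 1.92, 1.10 and 1.38 FPKM in control libraries, without overlap (limma log2 change -0.98, SE 0.117, adjusted p = 8.15e-05). ALDH1A3 was thus the more abundant of the pair in both groups. CYP2S1, a cytochrome that can metabolise retinoic acid, fell to 20.3 ± 1.60 FPKM in knockdown libraries, against 28.1 ± 0.246 FPKM in control libraries. CYP26B1, which breaks down retinoic acid and is induced by it, was lower by a small margin, at 6.46 ± 0.330 FPKM in knockdown libraries, against 7.61 ± 0.784 FPKM in control libraries (limma log2 change -0.20, adjusted p = 0.0418). That call was lost with libraries rescaled to a common sum and without control replicate 1 or 3 or knockdown replicate 2 or 3 (adjusted p 0.549, 0.0877, 0.18, 0.0762 and 0.0956). CYP26A1 and RARB, both known as strongly induced by retinoic acid, are not analysed here.

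Among 7 other binding proteins and nuclear receptors, 3 fell and 0 rose, with a median of -0.10, which turned to 1 lower, 2 higher and a median of 0.05 with a common sum. RXRB, a second RXR, fell to 11.9 ± 0.332 FPKM in knockdown libraries, against 13.9 ± 0.0906 FPKM in control libraries (limma log2 change -0.21, adjusted p = 0.00472), though with a common sum the change was -0.06 and did not pass (adjusted p = 0.412). In the list of receptor coregulators, 9 of 11 rose and 0 fell, with a median of 0.43. MED1, the Mediator subunit that binds nuclear receptors, had 11.7, 15.4 and 11.9 FPKM in the knockdown and 8.28, 6.83 and 7.34 FPKM in control libraries, highest in knockdown replicate 2 (limma log2 change 0.72, SE 0.101, adjusted p = 2.22e-04). The acetyltransferases CREBBP and EP300 rose to 6.33 ± 0.730 and 6.38 ± 0.701 FPKM in knockdown libraries, against 3.48 ± 0.193 and 3.57 ± 0.349 FPKM in control libraries. The coactivators NCOA1, NCOA2 and NCOA3 rose by 0.44, 0.63 and 0.43 on the log2 scale, the corepressor NCOR1 by 0.41, and NRIP1, which represses ligand-bound receptors, by 0.52. NCOA2, NCOA3, NRIP1, EP300, CREBBP and NCOR1 were, like MED1, highest in knockdown replicate 2 among the knockdown libraries. The count was also 9 of 11 without that library (median 0.37) and with the trend over gene length removed (median 0.33).

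Genes known to respond to retinoic acid were counted in lists set by the direction known from keratinocytes or other cells. The members were kept out of these lists whatever their own response to retinoic acid. The counts therefore leave out DHRS2 and CRABP2, which were higher, and DHRS3, RDH10 and ALDH1A3, which were lower. Of 12 tested genes known as induced, 8 fell and 3 rose, with a median of -0.41. With a common sum 6 fell and 4 rose, with a median of -0.26, and without control replicate 1, 6 fell and 3 rose. AQP3, a glycerol and water channel, had 79.4 ± 0.584 FPKM in the knockdown and 148 ± 0.628 FPKM in control libraries (limma log2 change -0.89, SE 0.0401, adjusted p = 1.91e-07). KRT15, KRT13 and KRT19 fell to 76.8 ± 5.81, 80.1 ± 1.23 and 330 ± 24.0 FPKM in knockdown libraries, against 133.6 ± 1.18, 125 ± 3.74 and 485 ± 8.53 FPKM in control libraries. TGM2, a tissue transglutaminase, fell to 1.74 ± 0.0646 FPKM in knockdown libraries, against 3.18 ± 0.377 FPKM in control libraries. The growth factor gene HBEGF and the keratin KRT4 rose, to 72.8 ± 2.30 and 47.5 ± 1.62 FPKM in knockdown libraries, against 51.4 ± 0.929 and 27.3 ± 0.713 FPKM in control libraries, as did NRIP1. STRA6 and CYP26B1 above are also in this list.

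Of 6 tested genes known as lowered by retinoic acid in keratinocytes, 5 rose and 1 fell, with a median of 0.67. KRT1 and KRT10, the paired keratins of suprabasal cells, rose to 34.4 ± 0.700 and 14.0 ± 1.71 FPKM in knockdown libraries, against 1.14 ± 0.274 and 6.80 ± 0.326 FPKM in control libraries. The envelope protein gene IVL rose to 5.55 ± 0.510 FPKM in knockdown libraries, against 2.61 ± 0.146 FPKM in control libraries. TGM1, a crosslinking enzyme, rose too, with 59.6 to 63.7 FPKM in knockdown and 41.9 to 44.8 FPKM in control libraries. FLG, the filaggrin gene, rose to 1.52 ± 0.205 FPKM in knockdown libraries, against 0.908 ± 0.101 FPKM in control libraries. CASP14, a protease of cornification, fell to 3.70 ± 0.319 FPKM in knockdown libraries, against 6.36 ± 0.511 FPKM in control libraries. The general keratinocyte markers, which share no gene with this list, moved the same way, with 9 of 14 higher. Many of these genes answer to other signals too, and neither retinoic acid nor its action was measured.

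In the wider DHRS-named family, 5 of 9 tested genes fell and 0 rose, with a median of -0.28. DHRS7 was at 33.3 ± 2.63 FPKM in the knockdown, against 31.0 ± 0.855 FPKM in the control, and did not pass (limma log2 change 0.10, adjusted p = 0.178). DHRS12, named here after its values were seen, was below the level needed for the test. It had 0.654, 0.677 and 0.427 FPKM in knockdown libraries and 0.279, 0.341 and 0.282 FPKM in control libraries, without overlap. DHRS1 fell to 12.0 ± 0.402 FPKM in knockdown libraries, against 16.4 ± 0.738 FPKM in control libraries (limma log2 change -0.42, adjusted p = 1.36e-04). DHRS7B and BDH2 fell to 6.84 ± 0.136 and 1.04 ± 0.120 FPKM in knockdown libraries, against 9.24 ± 0.540 and 1.61 ± 0.234 FPKM in control libraries. With libraries rescaled to a common sum 1 gene of this list rose and 4 fell, and 1 rose and 5 fell both with no filter on low values and with the length trend removed.

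**Figure D5:**
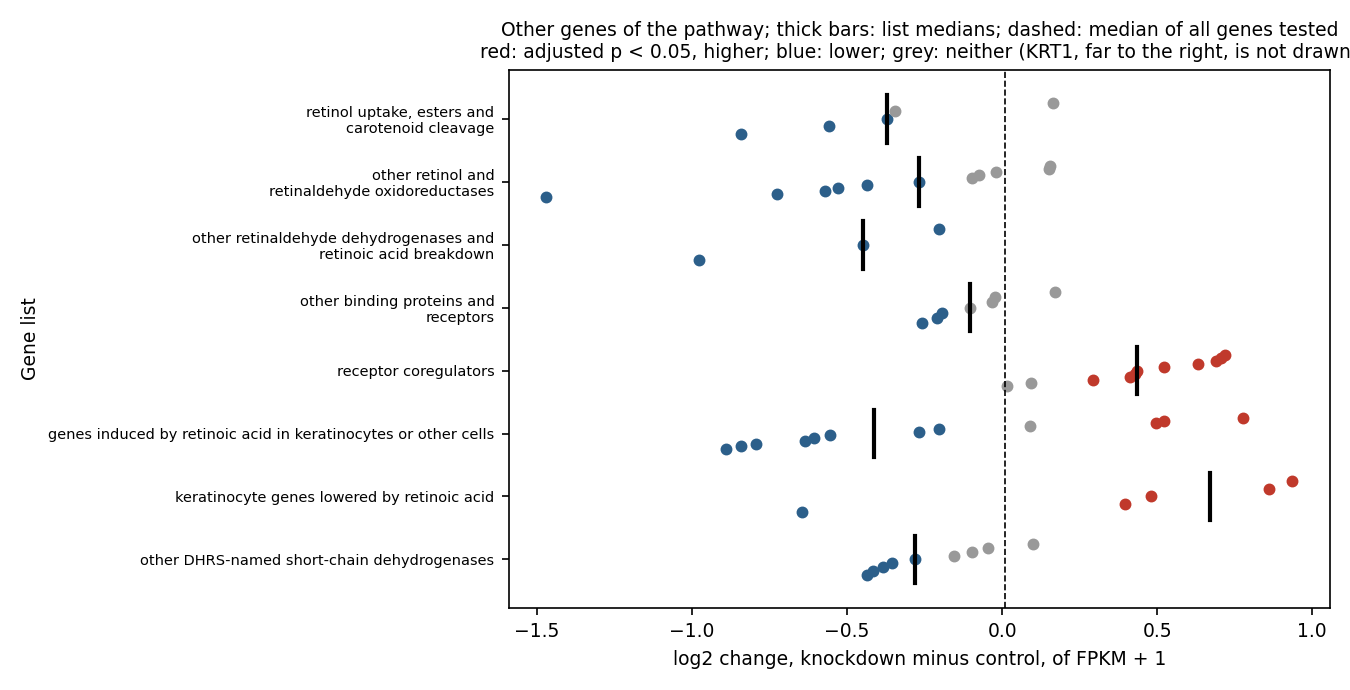
Log2 change, knockdown minus control, of FPKM + 1 for each tested gene of the function lists except KRT1. Thick bars are list medians, and the dashed line is the median of all genes tested, 0.01. Red passed as higher, blue as lower, grey passed neither way. KRT1, at 4.06, is not drawn, though the median of its list includes it. Medians lie below the dashed line for uptake, oxidoreductases, breakdown, binding proteins and receptors, induced genes and DHRS-named genes. They lie above it for coregulators and for genes known as lowered by retinoic acid.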

How the data were processed

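Total RNA of 3 knockdown and 3 control libraries was extracted with TRIzol and made into libraries with an Illumina TruSeq RNA kit, per the labels' protocols. The authors deposited FPKM values for 12829 genes; HISAT2 2.2.1 and the build GRCh38 were used, per the submitters' processing notes. For the counting program, annotation, gene lengths and strand setting, the sources used here give nothing. Coordinates are from GENCODE release 29 (GRCh38), in which 12818 genes matched by identifier.

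Whole reads were recovered from the FPKM steps for 99.99% of genes within 0.004 reads; a divisor common to all reads of a gene cannot be seen. FPKM divides by the library total, and its sum was 234624 to 248082 in knockdown and 271372 to 274709 in control libraries, so a scaling choice shifts all genes: with a common sum the median change was 0.14, and 72.6% of calls were higher, against 51.5%. No library repeated another.

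Tests on log2(FPKM + 1) used limma 3.58.1 under R 4.3.3 with a mean-variance trend, group as the only factor, for genes averaging at least 0.5 FPKM, two-sided, with Benjamini-Hochberg adjustment at 0.05. Members and lists were chosen with earlier results of these data known. Named beside the members were pathway genes past the threshold with an absolute log2 change of at least 0.3, a few fixed by name, and the 5 genes closest to DHRS2. On data simulated for this comparison over 11065 genes, 95.5% of genes changed by 1.5-fold were called, and 6 of 10865 unchanged ones. The simulation gave all libraries the same spread, 7% beyond counting, and changed few genes. In the data knockdown replicate 2 stood apart and 57.4% of genes were called, so these rates need not hold for them.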

Additional observations from a re-analysis of the deposited data

How the results depend on the processing

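The alternatives were pseudocounts of 0.1 and 0.5, no filter, a filter at 5 FPKM, a common sum and quantile normalization. Further ones were removal of the trend over gene length, a replicate block and each library left out in turn. Voom on recovered reads was added after seeing the data, in place of planned count tests on these reads, which were not run. Of 148 values for the 10 members, 138 kept their direction and side of the threshold, as did 606 of 617 for the other named genes. With a common sum, 4864 genes were higher and 1838 lower over all genes, and RDH11 (0.06), RXRA (0.058) and FABP5 (0.14, adjusted p = 0.0253) changed sign. FABP5 also changed sign under quantile normalization (0.017) and with the length trend removed (0.13, adjusted p = 0.0269), and its range without 1 library was -0.067 to 0.026. Members called lower numbered 3 to 5 over the fits without 1 library, 5 without knockdown replicate 1, where RARA and DHRS9 joined. With a filter at 5 FPKM, which tests fewer genes, 16 pathway genes were lower, against 26. The cause of the other shifts was not tested. Same-numbered libraries were not treated as pairs, as the labels do not state pairing. Correlations of their deviations from group means were -0.10, -0.06 and 0.06, which cannot show whether they were paired. With the replicate block 3167 genes were higher and 3024 lower, and the same 5 members were called. DHRS9, with 19 to 41 reads a library, had the fewest reads of the members; RDH16, HSD17B6 and ALDH1A1, also low, were lower under all 14 alternatives that gave a value.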
